A study of Mus musculus with 10 samples.

Results

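The 7 genes studied here belong to the contractile and actin-regulating apparatus of muscle: *Neb*, *Plec*, *Parvb*, *Nisch*, *Ssh2*, *Arhgef2* and *Abl2*. They were followed in denervated TA muscle of CD1 mice, 3 months old, as a ratio to TA muscle of the contralateral side. They were chosen by symbol, as the probes whose only gene symbol in the platform annotation is one of these, and they make up 7 of the 89 genes so named and 28 of the 9216 spots. Denervated and contralateral RNA were hybridised together on 2-colour spotted arrays at time 0 and at 1, 3, 7 and 14 days after denervation. Each of the 5 time points had 2 arrays of opposite labelling, called first and reverse here, so there were 10 arrays in all. The labels name no mutation or drug, and the sources used here do not give the way the nerve supply was removed, the number of animals or any pooling.

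Skeletal muscle builds force in sarcomeres, whose thin actin filaments are spanned by nebulin. The force is passed sideways to the cell membrane at costameres, where integrin complexes and cytolinker proteins tie the outer myofibrils to the extracellular matrix. Actin filaments outside the sarcomere are rebuilt by kinases, phosphatases and exchange factors that act on cofilin and other actin-binding proteins and on small GTPases, and a muscle that has lost its nerve shrinks while its contractile and membrane-linked structures are remodelled.

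Every value below is a log2 ratio of denervated over contralateral muscle. A value above 0 means more RNA in denervated muscle, and each gene's value on an array is the median of its 4 spots. The 2 labellings disagreed over much of the array. Across 2300 features their Pearson correlation was 0.13, -0.29, 0.27, 0.18 and -0.07 at the 5 time points in order, and their Spearman correlation was 0.10 to 0.66. Of the 7 genes, 4, 4, 5, 5 and 6 had the same sign on both arrays at these time points, and 62.8%, 51.5%, 74.5%, 71.7% and 64.8% of all features did. Spots above 5, a ratio far beyond most, made up 6.45% of the reverse array of day 14, and 4 of them belonged to these genes. On the first arrays of day 7 and day 14, 4.86% and 0.705% of spots lay above 5, and each held 1 spot of these genes. The part of such spots in the values of *Parvb* and *Arhgef2*, which hold them, was not tested.

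The ratios of the 7 genes lay, by their median size, farther from 0 at day 14 than at the other time points. The median size of their ratio was 1.25 at day 14, against 0.39 over all features. At day 7 the same medians were 0.33 for the genes and 0.33 for all features. The day 14 median of the genes leans on *Arhgef2* and *Parvb*, whose means of 1.76 and 1.57 lay above it. On the first array of day 14 they read only 0.38 and 0.68. In the limma fit to the 10 arrays, with p-values adjusted over 2300 features (Benjamini-Hochberg) and called under 0.05, *Neb* and *Parvb* were higher in denervated muscle at day 14, and *Nisch* and *Ssh2* were lower. These 4 calls stand against 14.3% of all features called at that time point, 8.74% higher and 5.57% lower. The 7 genes are few and were chosen with earlier results of these data known, and no test compared them with the other features. These shares therefore do not show that the 7 genes differ from the rest of the array. In the same fit 1 of the 7 genes, *Ssh2*, was called at day 7, against 11.6% of features (7.17% lower), and none was called at day 3, against 7.96%, at day 1, against 0.0435%, or at time 0, against 0.0%. Without adjustment 1 gene at day 3 and 1 at time 0 had a limma p under 0.05 (*Ssh2* and *Neb*). Of the 2300 features, 609 and 329 did at these time points. At day 1 none of the 7 genes and 45 features did. The limma p-values count the arrays of a labelling swap as separate samples and so show no more than how far arrays differ, which may be technical. In RNA from whole muscle, fewer cells of a type and less RNA per cell cannot be told apart.

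**Figure D1:**
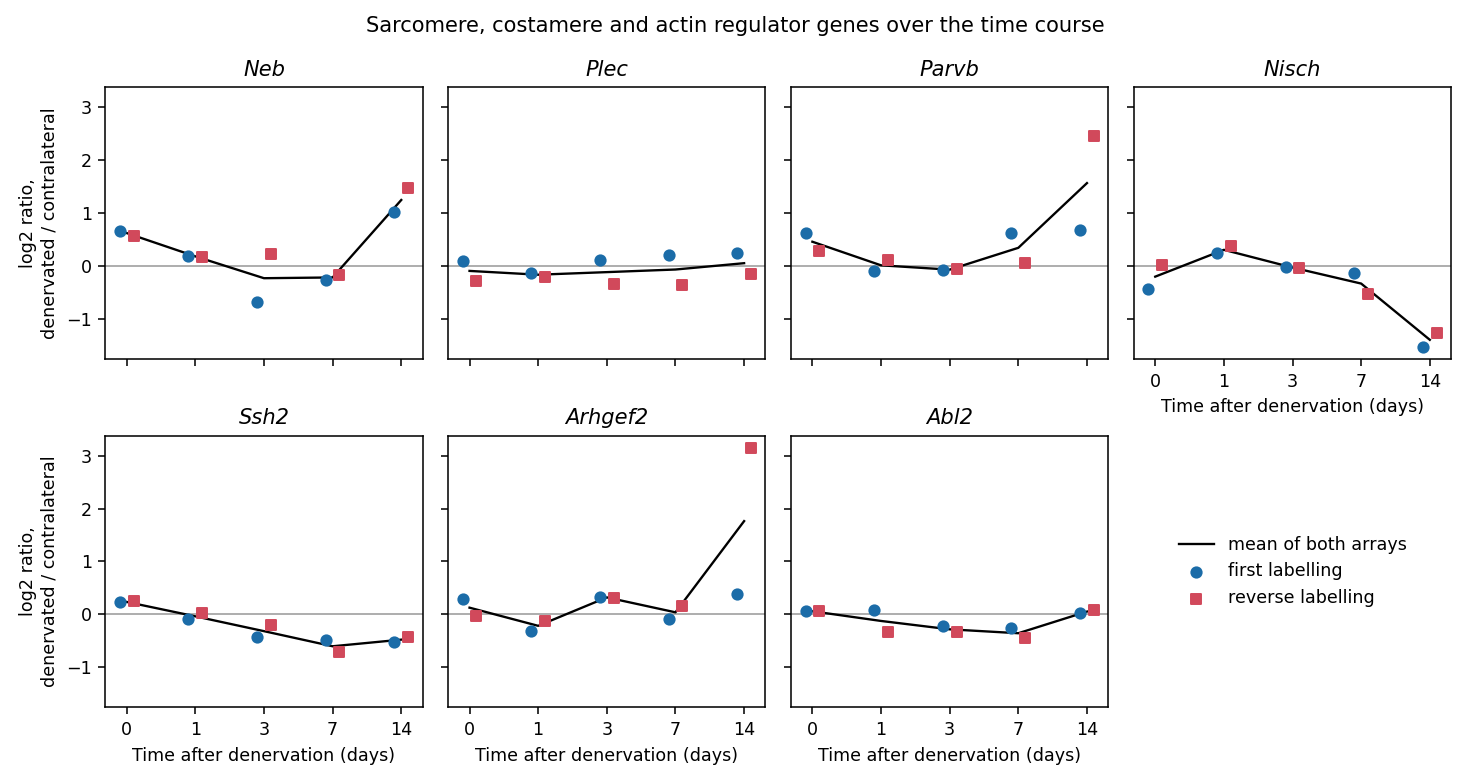
Log2 ratio of denervated over contralateral muscle (y axis) at time 0 and days 1, 3, 7 and 14 (x axis, evenly spaced), with a panel for each gene. Circles are the first labelling, squares the reverse labelling, and the line joins the means of both arrays. *Neb* turns upward and *Nisch* downward at day 14 on both arrays, *Ssh2* lies below 0 from day 3 onward, and the high day 14 means of *Parvb* and *Arhgef2* come mainly from the reverse array.

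*Neb* encodes nebulin, the giant protein that runs along the thin filament and takes part in setting its length. The gene lies at chr2:52136640-52338798 (GRCm38.p6). Its ratios on the first and the reverse array were 0.67 and 0.57 (time 0), 0.19 and 0.17 (day 1), -0.68 and 0.22 (day 3), -0.27 and -0.17 (day 7) and 1.02 and 1.47 (day 14). Both arrays of day 14 lay above all 8 arrays of the other time points, and day 3 was the only time point at which the labellings had opposite signs. At day 14 the mean was 1.25 ± 0.32 (SD, n = 2 arrays), a 2.38-fold higher level in denervated muscle, with a 95% interval of 0.72 to 1.78 on the log2 scale (limma adjusted p = 0.018). The intervals here and below are not adjusted over features. Without the reverse array the *Neb* value was 1.02 and the call was lost (limma adjusted p = 0.086).

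The spots of *Neb* agreed closely with each other. At day 14 they read 0.97, 1.13, 0.78 and 1.07 on the first array and 1.37, 1.58, 1.34 and 1.61 on the reverse array, so 8 of 8 were higher in denervated muscle. Its 4 spots spanned at most 0.34 on any of the 10 arrays. At day 3 the 4 spots of the first array lay between -0.77 and -0.51 and those of the reverse array between 0.21 and 0.39, so the split there was between arrays and not between spots.

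The time 0 ratio of *Neb*, 0.62 ± 0.07 (SD, n = 2 arrays), was already above 0, with 8 of 8 spots higher, although it did not pass the limma test (adjusted p = 0.34). Measured from time 0, the ratio differed by -0.85 at day 3 (limma adjusted p = 0.12) and by -0.84 at day 7 (limma adjusted p = 0.13). At day 14 it was 0.63 above time 0, with a 95% interval of -0.12 to 1.38 (limma adjusted p = 0.34). The day 14 call for *Neb* is therefore a difference from contralateral muscle, and a difference from time 0 was not shown. From day 7 to day 14 the ratio differed by 1.47 ± 0.31 (SE), with limma adjusted p = 0.073 in a contrast chosen after the data were seen, in which 0.783% of features and none of the 7 genes were called.

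*Plec* encodes plectin, a cytolinker that ties desmin filaments to Z-disks and costameres. The gene lies at chr15:76170974-76231378 (GRCm38.p6). The annotation record that carries its symbol has an Entrez identifier other than the mouse *Plec* identifier in the RefSeq gene table, so the name rests on the symbol alone. Its ratios on the first and the reverse array were 0.10 and -0.29 (time 0), -0.13 and -0.20 (day 1), 0.11 and -0.34 (day 3), 0.22 and -0.35 (day 7) and 0.25 and -0.15 (day 14). At 4 of the 5 time points the first array was above 0 and the reverse array below it, so the sign went with the labelling. The means stayed between -0.17 and 0.05, no array reached 0.36 in size, and at day 14 the 95% interval was -0.43 to 0.54 (limma adjusted p = 0.89).

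*Parvb* encodes beta-parvin, which binds integrin-linked kinase and actin at sites of integrin adhesion. The gene lies at chr15:84232043-84315689 (GRCm38.p6). Its ratios on the first and the reverse array were 0.63 and 0.29 (time 0), -0.09 and 0.12 (day 1), -0.07 and -0.07 (day 3), 0.63 and 0.05 (day 7) and 0.68 and 2.45 (day 14). The first array of day 14 was within 0.06 of the first arrays of time 0 and day 7, and the reverse array stood apart from the other 9. The day 14 mean was 1.57 ± 1.25 (SD, n = 2 arrays), or 2.96-fold higher in denervated muscle, with a 95% interval of 0.64 to 2.50 (limma adjusted p = 0.044). Without the reverse array the value was 0.68 and the call was lost (limma adjusted p = 0.13), as it was with print blocks centred (1.35, 0.11) and with labelling as a replicate block (limma adjusted p = 0.063).

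The 8 day 14 spots of *Parvb* did not agree. On the first array they read -0.28, -2.40, 10.49 and 1.64, a span of 12.9. On the reverse array they read -0.21, 5.50, -0.72 and 5.12. In all, 4 of 8 spots were higher in denervated muscle and 4 were lower, so the median on each array fell between spots that disagreed in sign. Spots above 5 made up 6.45% of the reverse array of day 14 as a whole. One spot of the first array of day 7, where 4.86% of spots were above 5, read 7.54 beside others of -0.25 to 0.80. Averaging the 4 spots, where the median was used otherwise, gave a day 14 value of 2.39. Against time 0 the day 14 ratio differed by 1.11, with a 95% interval of -0.21 to 2.43 (limma adjusted p = 0.34). Without the first array of day 14 it differed by 2.00, a value that rests on the split spots of the reverse array.

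**Figure D2:**
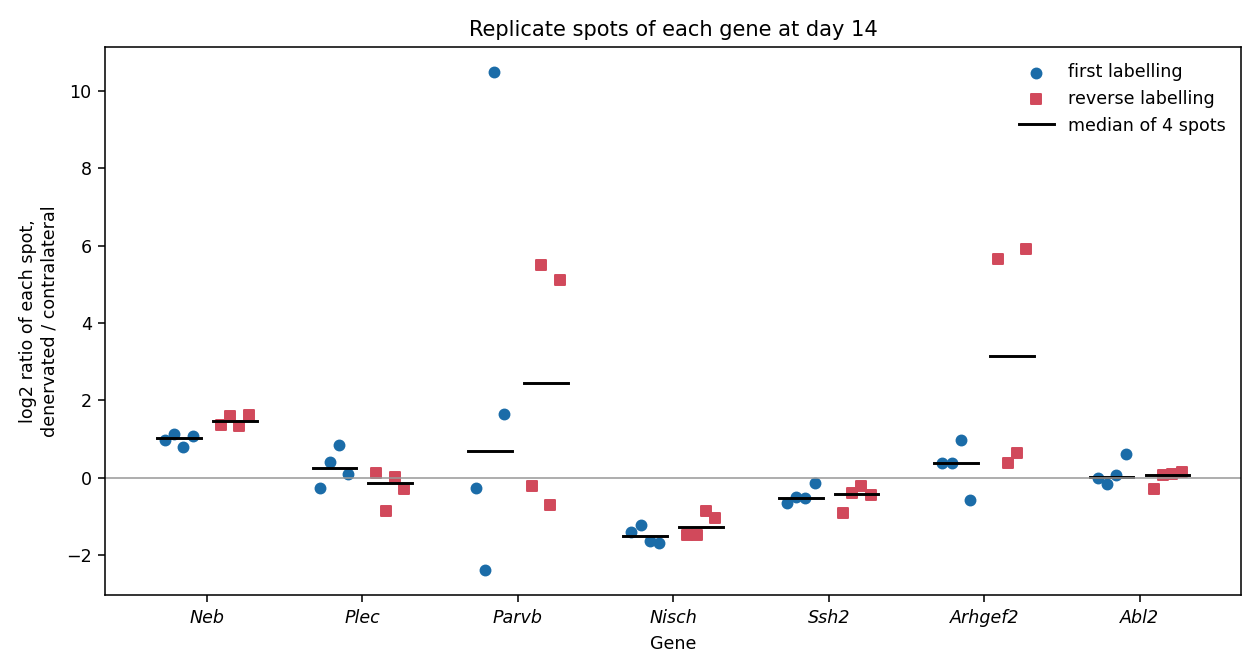
Log2 ratio of denervated over contralateral muscle for each of the 8 spots of each gene at day 14 (y axis), by gene (x axis). Circles are spots of the first array, squares are spots of the reverse array, and bars are the medians of 4 spots. All 8 spots of *Neb* lie above 0 and all 8 of *Nisch* and *Ssh2* lie below it, while spots of *Parvb* run from -2.40 to 10.49 and 2 reverse-array spots of *Arhgef2* lie above 5.

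*Nisch* encodes nischarin, a protein of the cytoplasm and endosomes that binds the tail of integrin alpha5 and inhibits p21-activated kinase signalling to the actin cytoskeleton. The gene lies on the minus strand at chr14:31170928-31206826 (GRCm38.p6). *Nisch* had the lowest day 14 ratio of the 7 genes, and its promoter is shown so that its sequence can be set beside that of *Ssh2*, the other gene with a lower ratio. The line holds 250 bases before and 50 after the start in RefSeq (GRCm38.p6, chr14:31206777-31207076, minus strand), 5′ to 3′, with an E-box and an MCAT box in capitals.
Nisch promoter: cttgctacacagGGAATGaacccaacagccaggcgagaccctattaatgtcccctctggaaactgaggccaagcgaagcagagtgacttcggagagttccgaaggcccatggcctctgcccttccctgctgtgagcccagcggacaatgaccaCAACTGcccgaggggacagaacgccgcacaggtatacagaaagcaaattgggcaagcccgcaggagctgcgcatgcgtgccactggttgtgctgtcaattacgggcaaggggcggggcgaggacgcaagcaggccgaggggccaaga

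The ratios of *Nisch* on the first and the reverse array were -0.43 and 0.03 (time 0), 0.24 and 0.37 (day 1), -0.02 and -0.03 (day 3), -0.13 and -0.54 (day 7) and -1.53 and -1.27 (day 14). Day 1 was above 0 on both arrays and 8 of 8 spots. Day 3 was close to 0 on both arrays, with spots of the first array from -0.33 to 0.31. Day 7 was below 0 on both arrays, and both arrays of day 14 lay below the other 8 arrays. The day 14 mean was -1.40 ± 0.18 (SD, n = 2 arrays), so denervated muscle held 0.38 times the contralateral level, with a 95% interval of -1.78 to -1.01 (limma adjusted p = 0.0040). All 8 spots were lower in denervated muscle, from -1.70 to -0.87. Each day 14 array alone kept the direction, at -1.53 and -1.27.

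*Nisch* was also the one gene of the 7 whose day 14 ratio differed from time 0, by -1.19 ± 0.23 (SE), with a 95% interval of -1.74 to -0.65 (limma adjusted p = 0.046). In that comparison 4.0% of features were called and 0.913% were called lower. The call was lost when any 1 of the 4 arrays of time 0 and day 14 was left out, with values of -1.42 to -0.97 (limma adjusted p = 0.054 to 0.098). It was also lost with labelling as a replicate block (limma adjusted p = 0.063), with the mean of 4 spots (-1.18, 0.053), with print blocks centred (-0.80, 0.15) and with arrays scaled to a common spread (-0.69, 0.34). From day 7 to day 14 the difference was -1.06 ± 0.23 (SE; limma adjusted p = 0.073). The print block that holds the *Nisch* spots had a median of -0.66 on the first array of day 14 and -0.11 on the reverse array. With every print block centred, the day 14 ratio itself, against contralateral muscle, was -1.01 (limma adjusted p = 0.015).

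*Ssh2* encodes slingshot 2, a phosphatase that activates cofilin, the protein that severs actin filaments. The gene lies at chr11:77216157-77460220 (GRCm38.p6). RefSeq gives it 2 promoter windows, which start at different places in the gene, and both are shown since the files do not say which transcript the probe reports. They run from 250 bases before to 50 after each start, on the plus strand, at chr11:77216175-77216474 and chr11:77348030-77348329 (GRCm38.p6), with E-boxes in capitals.
Ssh2 promoter 1: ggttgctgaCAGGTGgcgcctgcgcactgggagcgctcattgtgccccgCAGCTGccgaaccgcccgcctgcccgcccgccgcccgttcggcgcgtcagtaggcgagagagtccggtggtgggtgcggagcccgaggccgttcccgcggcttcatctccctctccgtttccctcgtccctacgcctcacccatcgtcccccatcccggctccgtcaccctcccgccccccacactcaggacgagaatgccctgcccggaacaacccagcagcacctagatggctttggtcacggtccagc
Ssh2 promoter 2: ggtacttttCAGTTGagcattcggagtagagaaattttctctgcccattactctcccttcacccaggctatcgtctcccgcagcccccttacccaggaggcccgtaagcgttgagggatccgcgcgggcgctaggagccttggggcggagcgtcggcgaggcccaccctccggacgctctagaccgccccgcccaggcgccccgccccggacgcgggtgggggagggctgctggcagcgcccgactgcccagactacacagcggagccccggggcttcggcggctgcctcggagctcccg

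The ratios of *Ssh2* on the first and the reverse array were 0.23 and 0.24 (time 0), -0.09 and 0.02 (day 1), -0.43 and -0.21 (day 3), -0.49 and -0.72 (day 7) and -0.52 and -0.43 (day 14). The 6 arrays of days 3, 7 and 14 were all lower than the 4 of time 0 and day 1. All 8 spots were higher in denervated muscle at time 0, and all 8 were lower at each of days 3, 7 and 14. The day 7 mean was -0.60 ± 0.16 and the day 14 mean -0.48 ± 0.06 (SD, n = 2 arrays each), or 0.66 and 0.72 times the contralateral level (limma adjusted p = 0.019 and 0.039). At day 3 it was -0.32 ± 0.15 and did not pass (limma adjusted p = 0.13). The print block that holds the *Ssh2* spots had a median of 0.19 on the first array of day 7 and 0.46 on the reverse array. With print blocks centred the day 7 ratio was -0.93 (limma adjusted p = 0.015). At day 14 that block had a median of -0.32 on the first array and 0.17 on the reverse array. The day 14 call was lost with print blocks centred (-0.41, limma adjusted p = 0.14) and with labelling as a replicate block (limma adjusted p = 0.054).

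Against time 0, the *Ssh2* ratio fell by 0.84 ± 0.16 (SE) at day 7, with a 95% interval of -1.22 to -0.46 (limma adjusted p = 0.029), a comparison in which 11.0% of features were called and 5.83% were called lower. At day 14 the difference from time 0 was -0.71, with a 95% interval of -1.09 to -0.33 (limma adjusted p = 0.066), and at day 3 it was -0.55 (limma adjusted p = 0.077), where 6.96% of features and none of the 7 genes were called. At day 1 no feature and no gene of the 7 passed against time 0 (0.0%), with 114 features and none of the 7 genes at an unadjusted p under 0.05. The day 7 ratio was no longer called with either of its arrays left out, at -0.49 and -0.72 (limma adjusted p = 0.12 and 0.071). The day 14 ratio was likewise lost with either of its arrays left out, at -0.52 and -0.43 (limma adjusted p = 0.094 and 0.15). The day 7 difference from time 0 was lost when any 1 of its 4 arrays was left out, at -0.96 to -0.72 (limma adjusted p = 0.057 to 0.10).

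*Arhgef2* encodes a microtubule-bound guanine nucleotide exchange factor with a role in actin regulation. The gene lies at chr3:88593105-88649532 (GRCm38.p6). Its ratios on the first and the reverse array were 0.29 and -0.03 (time 0), -0.32 and -0.12 (day 1), 0.33 and 0.31 (day 3), -0.08 and 0.16 (day 7) and 0.38 and 3.15 (day 14). The reverse array of day 14 stood far above the other 9 arrays, which lay between -0.32 and 0.38. The day 14 mean of 1.76 ± 1.96 (SD, n = 2 arrays), a 3.40-fold ratio, was the highest of the 7 genes, had a 95% interval of 0.41 to 3.11, and did not pass (limma adjusted p = 0.084).

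The spots behind the *Arhgef2* value split in the reverse array of day 14. They read 5.66, 0.37, 0.63 and 5.92 there, so 2 of 4 were above 5, as were 6.45% of all spots on that array, and the other two were close to the spots of the first array, at 0.39, 0.37, 0.96 and -0.59. On the first array alone the day 14 ratio was 0.38, and on the reverse array alone it was 3.15. The difference of *Arhgef2* from time 0 was 1.64 with both day 14 arrays (limma adjusted p = 0.33) and 3.02 with the reverse array alone. A fit with 1 day 14 array takes its spread from the other time points. It therefore leaves out the gap between the 2 day 14 arrays. *Parvb* showed the same kind of split, and *Parvb* and *Arhgef2* were the only members among the 7 whose 4 spots spanned more than 2 on any array, against 44.2% of all probes.

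*Abl2* encodes a tyrosine kinase that binds actin filaments and acts downstream of integrins and growth factor receptors. The gene lies at chr1:156558590-156649619 (GRCm38.p6). Its ratios on the first and the reverse array were 0.05 and 0.06 (time 0), 0.08 and -0.33 (day 1), -0.23 and -0.34 (day 3), -0.26 and -0.45 (day 7) and 0.03 and 0.08 (day 14). Days 3 and 7 lay below 0 on both arrays and on 8 of 8 spots, and both arrays of day 14 lay at or above 0. The day 3 mean was -0.28 ± 0.08 and the day 7 mean -0.36 ± 0.14 (SD, n = 2 arrays each), and neither passed (limma adjusted p = 0.22 and 0.12). At day 14 it was 0.05 ± 0.04, with a 95% interval of -0.26 to 0.36, and it differed from day 7 by 0.41 (limma adjusted p = 0.23) and from time 0 by -0.01, with a 95% interval of -0.44 to 0.43 (limma adjusted p = 0.99).

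**Figure D3:**
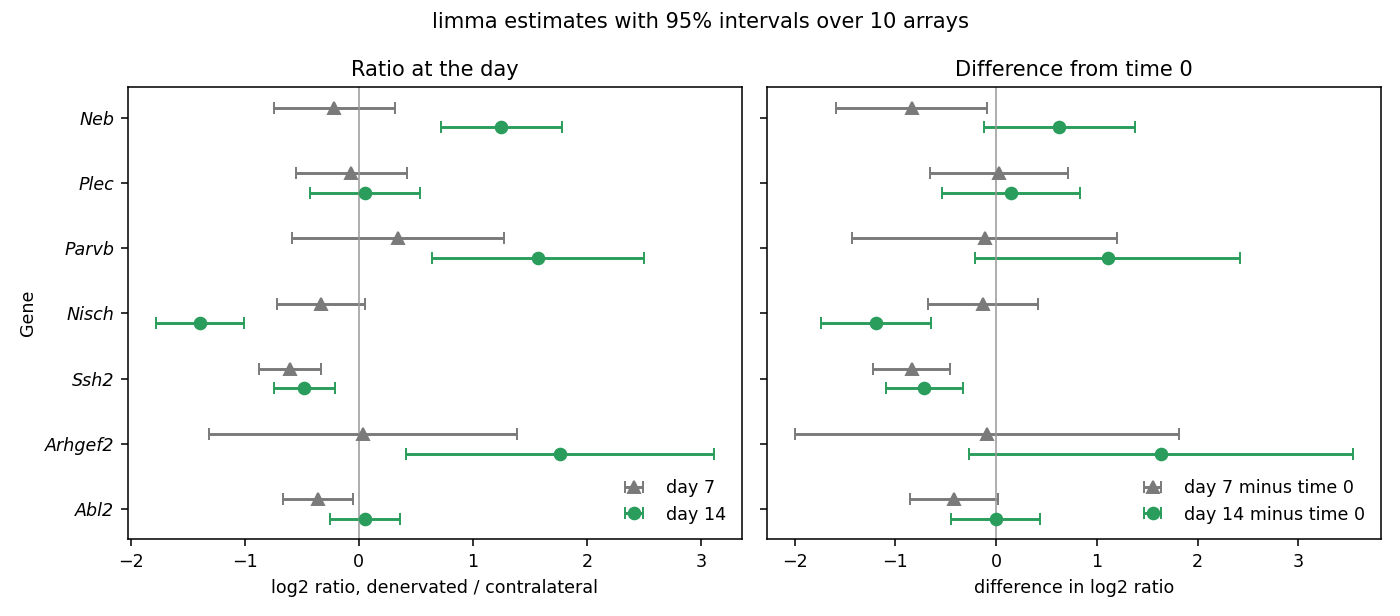
limma estimates with 95% intervals for each gene (y axis): on the left the log2 ratio of denervated over contralateral muscle, on the right its difference from time 0 (x axes, log2 units). Triangles are day 7 and circles are day 14. The day 14 interval of *Nisch* lies below 0 in both panels and that of *Ssh2* likewise, while the interval of *Neb* lies above 0 on the left and spans 0 on the right. The intervals are not adjusted over features, and the day 14 difference of *Ssh2* from time 0 was not called (limma adjusted p = 0.066).

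In order of the day 14 ratio, the genes ran from *Arhgef2* at 1.76, *Parvb* at 1.57 and *Neb* at 1.25, through *Plec* and *Abl2* at 0.05 each, to *Ssh2* at -0.48 and *Nisch* at -1.40. *Arhgef2*, *Parvb* and *Neb* did not differ from each other beyond the spread between their arrays, and the arrays of *Plec* and *Abl2* overlapped. The arrays of *Nisch* and *Ssh2* did not overlap, nor did those of *Ssh2* and the 5 genes above it. The 4 genes *Neb*, *Parvb*, *Nisch* and *Arhgef2* had a day 14 mean of at least 1 in size with the same sign on both arrays, as did 11.3% of features. On the first array alone, *Parvb* and *Arhgef2* stayed under that size, at 0.68 and 0.38. None of the 7 reached that size at time 0, day 1, day 3 or day 7, where 2.91%, 2.61%, 6.83% and 8.57% of features did.

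The size of the day 14 ratios depends on how the arrays are scaled to each other. Ratios spread more widely at day 14 than at early time points, and bringing all arrays to a common median size multiplied the first and reverse arrays of day 14 by 0.563 and 0.665. After that step *Nisch* read -0.85 (limma adjusted p = 0.081), *Neb* 0.78 (0.19), *Parvb* 1.01 (0.22) and *Ssh2* -0.29 (0.33), so none of the 4 calls remained, although the direction of each did. *Ssh2* at day 7 read -0.49 after scaling and was no longer called (limma adjusted p = 0.11).

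**Figure D4:**
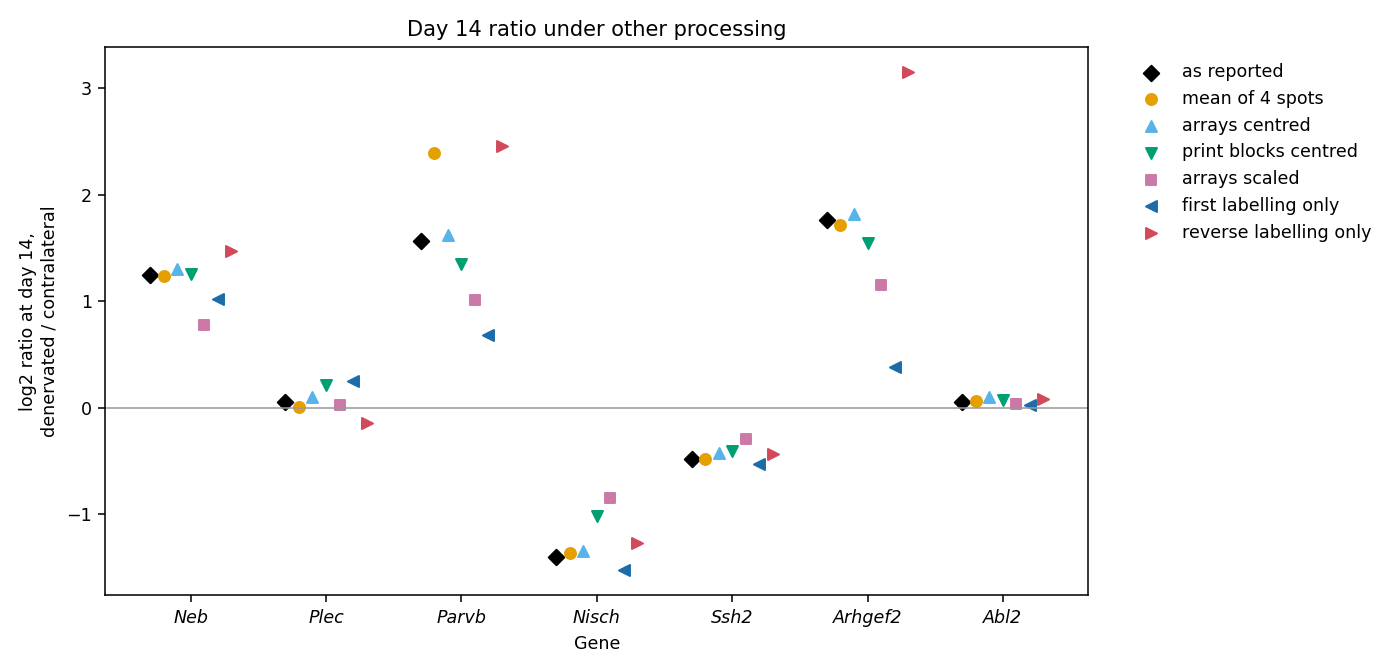
Day 14 log2 ratio of denervated over contralateral muscle (y axis) for each gene (x axis) as reported and under 6 other treatments of the same spots, marked by shape and colour. *Nisch* and *Ssh2* stay below 0 and *Neb*, *Parvb*, *Arhgef2* and *Abl2* above 0 in all of them, with scaling moving values toward 0 and the array of one labelling setting the size for *Parvb* and *Arhgef2*.

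Over the whole course, 3 tests on the time-point means asked for a steady difference, a trend and a late change. None of the 7 genes and none of the 2300 features passed limma's adjusted threshold for the mean of days 1 to 14, the slope on log2 time or days 7 and 14 minus days 1 and 3 (0.0% of features called in each). Without adjustment, 193, 224 and 111 features had a p under 0.05 in these tests. *Ssh2* was the one gene of the 7 among them, for its slope of -0.20 ± 0.08 (SE) per doubling of day + 1 (limma adjusted p = 0.47). Its mean over days 1 to 14 was -0.36 ± 0.24 (SD over 4 time points), below 0 at all 4 time points and on 7 of 8 arrays (limma adjusted p = 0.53). *Nisch* had nearly the same mean, -0.36, with an SD of 0.74 over the 4 time points, since its ratio was 0.31 at day 1 and -1.40 at day 14. *Neb*, *Parvb* and *Arhgef2* averaged 0.25 ± 0.70, 0.46 ± 0.76 and 0.48 ± 0.89, and *Plec* and *Abl2* averaged -0.07 ± 0.09 and -0.18 ± 0.18 (SD over 4 time points).

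To place each gene among the other 82 named genes, those with the most similar ratio over the 10 arrays were found by Pearson correlation, as a description. The arrays share the time course and, in pairs, the labelling, so they are not independent points. *Neb* was nearest to *Zfp948* (r = 0.92, and 0.88 without the reverse array of day 14) and *Bckdk* (0.87 and 0.81), and *Bckdk*, which encodes the kinase that restrains branched-chain amino acid breakdown, averaged 0.97 ± 0.09 at day 14 (SD, n = 2 arrays). *Ssh2* was nearest to *Scn4b* (r = 0.84 and 0.83), a sodium channel beta subunit that averaged -1.18, -1.09 and -1.30 at days 3, 7 and 14. *Nisch* was nearest to *Slc25a4* (r = 0.79 and 0.73), the muscle ADP/ATP carrier, which averaged -0.68 ± 0.05 at day 14, and then to *Pcdh19* (0.76 and 0.69).

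For *Parvb* the likeness rested on 1 array. It was nearest to *Rbfox2* (r = 0.91) and *Ttc19* (0.90), but without the reverse array of day 14 these were 0.43 and 0.22. *Arhgef2* was also nearest to *Rbfox2* (0.97, and 0.86 without that array), while its value with *Ttc19* was 0.92 with that array and -0.26 without it. Between *Parvb* and *Arhgef2* themselves r was 0.91 with that array and 0.21 without it. *Plec* was nearest to *Fam20b* (0.70 and 0.71) and *Herc1* (0.63 and 0.63), and *Abl2* to *MBNL2* (0.71 and 0.66) and *Zfp948* (0.69 and 0.63). *Ssh2* was next nearest to *2010012P19Rik* (0.80 and 0.80).

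Of a list of 142 other genes of the sarcomere, costamere, focal adhesion and actin regulation, 0 were named on the array by a single symbol, so no pathway count could be given. *Myl6*, a myosin light chain outside that list that was picked after its values were seen, averaged -0.26, 0.06, 0.47, 0.40 and -0.43 at time 0 and days 1, 3, 7 and 14, and none of these passed. Of 59 markers in 8 lists of muscle fibre types, other cell types and denervation, 4 were named, and 6 of the lists, including those of macrophages, fibroblasts, endothelium, Schwann cells and satellite cells, had none. *Trdn* and *Slc25a4*, the 2 genes named from the fast-fibre list, averaged -0.65 and 0.18 at day 7, and -0.09 and -0.68 at day 14. They are not taken as a measure of fast-fibre content. *Trdn* was lower in denervated muscle at day 7 (limma adjusted p = 0.016) and *Slc25a4* at day 14 (limma adjusted p = 0.020). Measured from time 0, *Trdn* differed by -0.74 at day 7 (limma adjusted p = 0.040). *Slc25a4* already averaged -0.36 at time 0. Its day 14 difference from time 0 was -0.31 (limma adjusted p = 0.38), so a change from time 0 was not shown. Of the denervation list, *Scn4b* was lower at days 3, 7 and 14 (limma adjusted p = 0.0024, 0.0029 and 0.0011). *Mef2a*, a transcription factor of muscle genes, averaged 0.47, 0.92 and 0.56 at these days and was called higher at day 7 (limma adjusted p = 0.037). Measured from time 0, *Scn4b* passed at days 3, 7 and 14 (limma adjusted p = 0.022, 0.014 and 0.0082). The day 7 difference of *Mef2a* from time 0 was 0.89 and did not pass (limma adjusted p = 0.10). The part of a change in cell makeup in the ratios of the 7 genes was not tested.

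Promoter windows were listed for 5 of the 7 genes, and none were listed for *Neb* and *Plec*. E-boxes (CANNTG on either strand) were in 72.3% of 32851 RefSeq promoter windows of the same length, the MCAT box (CATTCC or its reverse complement GGAATG) in 14.7%, the MEF2 box in 3.19% and the serum response factor box in 1.63%. The *Nisch* window shown above holds an E-box, CAACTG, at position -97 from the start, and the reverse MCAT box at -238. The *Ssh2* windows hold CAGGTG and CAGCTG at -241 and -201 from the first start, and CAGTTG at -241 from the second. The *Parvb* and *Abl2* windows hold 2 E-boxes each, 1 of the 4 *Arhgef2* windows holds 3, and no MEF2 or serum response factor box was found in any of the 9 windows, which says only that these letters are not in these 300 bases.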

How the data were processed

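Per the labels, total RNA of both muscles was reverse transcribed with Cy3 or Cy5 nucleotides and hybridised together, images were read with QuantArray, and the authors normalized each spot with SNOMAD (global and lowess). The deposited values are log2 ratios of normalized intensities, positive where denervated muscle held more RNA, on all 10 arrays. No sign was turned. No intensity was used, which leaves signal over background unknown, and the number of arrays limits the precision.

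Spots of named probes recur at 4 fixed offsets in 16 print blocks. This layout, inferred for unnamed spots, gave 2304 probes and 2300 features (89 named genes). The 4 spots of a probe were summarised by their median. Names came from the platform annotation and the RefSeq table (GRCm38.p6), which also gave the promoters.

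The genes, lists and tests were chosen with earlier results of these data known. limma 3.58.1 in R 4.3.3 tested the time-point means (both arrays of a swap as 1 replicate) and, second to them, the 10 arrays, for each time point against 0 and minus time 0. All tests were two-sided with Benjamini-Hochberg adjustment at 0.05, and the fits were checked on simulated data. Contrasts between successive time points were added later. The rule for named genes took the 7 genes and the 2 most like each. Alternatives covered the spot summary, centring, print blocks, scaling, variance moderation, spot filters, repeated values, probes of a gene, blocks, time 0 and left-out arrays.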

Additional observations from a re-analysis of the deposited data

Results flagged for a closer look

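A difference between time points passed its test for 2 of the 7 genes. Against time 0, 1 gene passed at day 7, where 11.0% of features did, and 1 at day 14, where 4.0% did. These counts do not set the 7 genes apart from the other features. The *Nisch* ratio at day 14 minus that at time 0 was -1.19 (limma adjusted p = 0.046), from a mean of -1.40 at day 14 and -0.20 at time 0. It was lost with any 1 of its 4 arrays left out, with the replicate block, with the mean of 4 spots, with print blocks centred and with arrays scaled. The *Ssh2* ratio at day 7 minus that at time 0 was -0.84 (limma adjusted p = 0.029), from a mean of -0.60 at day 7 and 0.23 at time 0, and it was lost with any 1 of its 4 arrays left out and with arrays scaled.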

How the results depend on the processing

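No called value changed sign under any alternative. Values that were not called did so in 54 of the 1075 fits of a gene under an alternative. The largest of them as reported was *Arhgef2* for late minus early, at 0.85. Among the 7 genes, 4 were called at day 14, where 14.3% of all features were. The gene counts that follow show how calls depend on the processing, and do not compare the genes with the other features. The count was 2 with print blocks centred (*Neb*, *Nisch*), 2 with labelling as a replicate block (*Neb*, *Nisch*), 0 with arrays scaled to a common spread and 1 to 4 with a day 14 array left out. The count at day 7 was 0 with arrays scaled and 0 with either day 7 array left out. Against time 0, keeping probes whose spots span at most 2 left 5 of the 7 genes and 1285 features. Of these features 569, 553 and 209 were called at days 3, 7 and 14. Of the 5 genes, 2 were called at each of these days, against 0, 1 and 1 of the 7 as reported. The day 7 count was 0 with arrays scaled and 0 in every leave-one-out fit. The day 14 count was 0 with the mean of 4 spots, with print blocks centred, with arrays scaled and with the replicate block (*Nisch* -1.19, limma adjusted p = 0.063), and 0 to 2 with 1 array left out. With the replicate block *Parvb* and *Ssh2* also lost their day 14 calls (limma adjusted p = 0.063 and 0.054). Over all features, 13 passed for the mean of days 1 to 14 with time 0 subtracted, 88 passed for the slope with the replicate block and 52 with time point as a random block, and for late minus early 21 passed with the spot filter, 1 with the replicate block and 1 with the random block. None of the 7 genes was among them. Over all features, the day 14 count of 329 was 14 after scaling and 483 with the spot filter, that of 267 at day 7 was 35 and 441, and that of 183 at day 3 was 94 and 407. Against time 0, the counts were 92 at day 14 (0 after scaling, 209 with the spot filter) and 252 at day 7 (0 and 553). At day 3 the count was 160 (61 with the mean of 4 spots, 569 with the spot filter). Counts with the spot filter are out of the 1285 features it kept. With 1 array left out the ratio counts ran from 36 to 53 at day 3, 85 to 168 at day 7 and 261 to 327 at day 14. The cause of these changes was not tested. Deviations of same-labelling arrays correlated above 0 in all 10 pairs of time points, and over 0.1 in 9 (0.03 to 0.42). This is a sign of a shared labelling effect. Arrays of the same labelling at different time points had a median Pearson correlation of 0.14 (-0.07 to 0.41). For the 2 arrays of a time point the median was 0.13 (-0.29 to 0.27). The labels mark the labelling of each array but state no pairing of arrays across time points. Since 1 pair also fell short of 0.1, the block stayed an alternative, although labelling is a known part of the design. The calls lost with it, *Parvb* and *Ssh2* at day 14 and *Nisch* against time 0, therefore depend on that choice. The lone array of a left-out fit is assumed to vary like the others.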
